A study of Mus musculus with 10 samples.

Results

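The expression of 9 genes of the B lineage was examined in LSK cells of mouse bone marrow: Mzb1, Jchain, Pou2af1, Cd79a, Cd79b, Igll1, Vpreb1, Blnk and Ighm. They were chosen by name, as Mzb1 and the B-lineage and immunoglobulin genes around it, with earlier results of the comparison of LysM-KI with control cells already known. Differences between the 2 groups are therefore given for these genes as a description, with no test. Of the 9 genes, 7 had a probe with a single gene symbol in the platform annotation, 9 probes in all of the 45281 on the array. Cd79a and Ighm had no such probe and were not analysed here. Of the 9 probes, 8 passed the filter on dim probes, which asked for detection at p under 0.05 on 5 or more arrays, as did 17245 probes of the whole array.

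LSK cells lack the surface markers of mature blood lineages and carry Sca1 and cKit, and the compartment holds stem cells and multipotent progenitors. RNA from sorted cells was measured on 10 arrays, 1 per mouse, 5 from control and 5 from mutant LysM-KI mice. All mice, controls included, had the strain label LysMCre and were 9 to 16 weeks old. The LysMCre line expresses Cre recombinase from Lyz2, a gene active mainly in myeloid cells; the labels name no knocked-in allele, and the share of LSK cells in which Cre had acted was not tested.

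B cells arise from lymphoid-primed progenitors that first switch on the recombinase genes and the surrogate light chain. Vpreb1 and Igll1 encode that surrogate light chain, which pairs with the immunoglobulin mu chain in the pre-B cell receptor, while Cd79a and Cd79b encode the signalling chains of the receptor and Blnk the adaptor below them. Pou2af1 is a coactivator of octamer-binding transcription factors. Mzb1, a chaperone of the endoplasmic reticulum, and Jchain, which joins immunoglobulin polymers, act late, in antibody secretion, and transcripts of both are also found in plasmacytoid dendritic cells.

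Between 15234 and 18801 probes were detected per array, and the median raw intensity ran from 102.3 to 140. Control replicate 4 and LysM-KI replicate 2 had the fewest detected probes of their groups, at 15234 and 16430. They were left out together in an alternative chosen with earlier results of these data known. On its 4 probes Xist, transcribed from the inactive X chromosome of females, had log2 levels from 11.40 to 12.26 in control replicate 4 and LysM-KI replicate 4 and from 4.42 to 7.08 in the other arrays; with both left out the log2 difference of Mzb1 between the groups was -2.01, against -1.90 with all arrays. Of 10 markers of the LSK compartment, 8 had a probe, and Kit, Cd34 and Flt3 were among the 8 detected on every array. Sca1 (Ly6a) was not analysed here.

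Mzb1 was lower in LysM-KI cells than in control cells, and the groups did not overlap. Its normalized log2 level was 6.95, 7.78, 8.24, 7.80 and 7.08 in control replicates 1 to 5 and 5.83, 5.27, 5.46, 6.32 and 5.47 in LysM-KI replicates 1 to 5. All 5 LysM-KI mice lay below the lowest control mouse. The group means were 7.57 ± 0.54 (SD, n = 5) and 5.67 ± 0.41, a log2 difference of -1.90 (SE 0.32), or a 3.74-fold lower level. Of all kept probes, 0.336% were lower in every LysM-KI mouse than in any control mouse and 0.574% were higher in every one. Mzb1 was the 1 member of the first kind and 0 members were of the second; since Mzb1 was picked for this difference, nothing is read from those shares. In the raw intensities, with the background still in them, Mzb1 ran from 233.1 to 504.1 in control cells and from 129.4 to 179.9 in LysM-KI cells, again without overlap. The LysM-KI values lay close to the background: Mzb1 was detected on all 10 arrays at a detection p under 0.05, but on only 3 of the 5 LysM-KI arrays, against all 5 control arrays, at a p under 0.01. The size of the difference depended on how the background was handled, and without background correction it was -0.96 (SE 0.18) on the log2 scale. In a bulk sample, fewer cells that express a gene and less RNA per cell cannot be told apart.

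Jchain had the same direction with a smaller difference. Its log2 level was 10.35, 10.73, 11.11, 10.55 and 11.13 in control replicates 1 to 5 and 9.51, 9.92, 9.83, 10.19 and 10.56 in LysM-KI replicates 1 to 5. The groups overlapped through LysM-KI replicate 5, and 4 of the 5 LysM-KI mice lay below the lowest control mouse. The log2 difference was -0.77 (SE 0.27) between means of 10.77 ± 0.34 (SD, n = 5) in control and 10.00 ± 0.39 in LysM-KI cells, 1.71-fold lower in the latter.

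Pou2af1 ran at 11.91, 11.45, 10.53, 10.69 and 11.87 in control replicates 1 to 5 and at 10.58, 10.42, 11.002, 10.39 and 11.01 in LysM-KI replicates 1 to 5 on the log2 scale. Every LysM-KI mouse was below the control mean, but control replicates 3 and 4 lay within the LysM-KI range. The log2 difference was -0.61 (SE 0.33), with a 95% interval from -1.33 to 0.11.

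Cd79b went the other way. The log2 level of its kept probe was 8.76, 6.67, 6.64, 6.95 and 7.95 in control replicates 1 to 5 and 7.51, 8.70, 8.11, 8.45 and 8.37 in LysM-KI replicates 1 to 5. All LysM-KI mice were above the control mean of 7.39 ± 0.93 (SD, n = 5), yet the highest value of all was that of control replicate 1. The log2 difference was 0.83 (SE 0.43), with a 95% interval from -0.12 to 1.79. Of the 7 genes, 3 were below 0 and 4 above 0 in LysM-KI minus control, where 46.6% and 53.4% of all kept probes lay. A second Cd79b probe was detected on 2 arrays, gave a difference of -0.01 (SE 0.39) and had a Pearson r of -0.45 with the first over the 10 arrays once the group means were removed, so that the Cd79b difference rests on 1 probe.

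**Figure D1:**
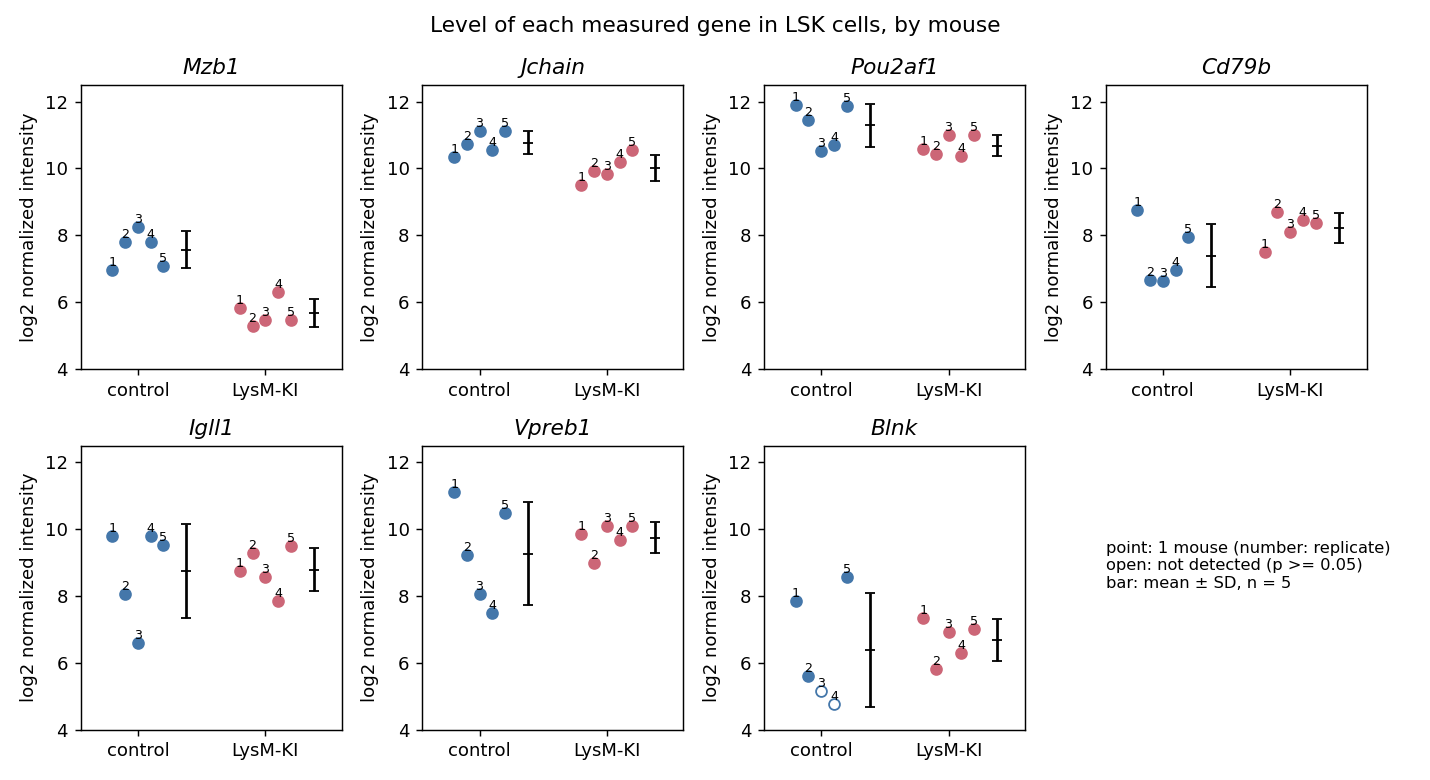
Normalized log2 intensity (y axis) of the 7 measured genes in each mouse of the control and LysM-KI groups; points are mice numbered by replicate, open points were not detected, and bars give the mean and SD of 5 mice. Mzb1 is the one gene whose groups do not overlap, and Vpreb1, Igll1 and Blnk spread more widely in control than in LysM-KI mice.

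Vpreb1, Igll1 and Blnk, the genes of the pre-B cell receptor and its adaptor, differed between the groups by less than the spread between mice. Vpreb1 had log2 levels of 11.10, 9.23, 8.07, 7.48 and 10.48 in control replicates 1 to 5 and 9.85, 8.97, 10.10, 9.67 and 10.11 in LysM-KI replicates 1 to 5. The LysM-KI values all fell inside the control range, which spanned 12.3-fold against 2.19-fold in LysM-KI mice. The log2 difference of 0.47 (SE 0.64, 95% interval from -0.94 to 1.87) was 0.02 without control replicate 4 and 0.92 without control replicate 1.

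Igll1, which lies next to Vpreb1 on chromosome 16 with 0 annotated genes between them in the RefSeq table, had log2 levels of 9.80, 8.05, 6.60, 9.81 and 9.53 in control replicates 1 to 5. It had 8.73, 9.29, 8.58, 7.85 and 9.50 in LysM-KI replicates 1 to 5. Control replicate 3 was the lowest, and control replicate 4, lowest for Vpreb1, was the highest for Igll1. The log2 difference was 0.03 (SE 0.62, 95% interval from -1.32 to 1.39) and ran from -0.51 without control replicate 3 to 0.53 with the arrays high in Xist, control 4 and LysM-KI 4, dropped.

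Blnk was measured by 2 probes whose values ran together, with a Pearson r of 0.98 between them over the 10 arrays after removal of the group means. The probe with the higher mean had log2 levels of 7.86, 5.61, 5.15, 4.78 and 8.56 in control replicates 1 to 5 and 7.36, 5.81, 6.92, 6.28 and 7.03 in LysM-KI replicates 1 to 5. It was detected on 3 of 5 control arrays and on all 5 LysM-KI arrays, and at a detection p under 0.01 on 2 and 5. Its log2 difference was 0.29 (SE 0.71, 95% interval from -1.28 to 1.86), and ran from -0.12 without control replicate 4 to 0.83 without control replicate 5. With control 4 and LysM-KI 4 dropped it was -0.02, and that of the other probe was -0.03.

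The control mice spread more widely than the LysM-KI mice for 6 of the 7 genes. The SD over control mice was 3.30 times that over LysM-KI mice for Vpreb1, 2.73 times for Blnk and 2.17 times for Igll1, against 1.31 times for Mzb1 and 0.879 times for Jchain. Control mice varied more for most genes, since the control SD was the larger on 70.4% of the kept probes, with a median ratio of 1.34. The ratio of Vpreb1 was at the 93.5th percentile of all kept probes and that of Blnk at the 89.0th. The SD within groups, pooled over both, was at the 93.4th percentile for Blnk, the 88.0th for Vpreb1 and the 86.1th for Igll1, but at the 30.8th for Mzb1 and the 18.0th for Jchain.

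The mice with high Vpreb1 were also those with high Blnk and Pou2af1. Covariation was measured over the 10 arrays after the mean of each group had been removed, so that the difference between the groups played no part, and tested by an exact two-sided permutation of the mice within their groups, adjusted by Benjamini-Hochberg over the 21 pairs of genes. Vpreb1 and Pou2af1 had a Pearson r of 0.92 (exact permutation p = 0.00507, adjusted p = 0.0605) and a Spearman rho of 0.96 (exact permutation p = 0.00257, adjusted p = 0.0365). Vpreb1 and Blnk had an r of 0.92 (exact permutation p = 0.00576, adjusted p = 0.0605) and a rho of 0.94 (exact permutation p = 0.00347, adjusted p = 0.0365). By rank both pairs passed the threshold of 0.05 after adjustment, and by Pearson's r 0 of 21 pairs did, against 6 at an unadjusted p under 0.05. Without the 2 arrays farthest from the median of the first gene, r was 0.84 for Pou2af1 with Vpreb1 (without control replicates 1 and 5) and 0.84 for Vpreb1 with Blnk (without control replicates 4 and 3). Igll1 and its neighbour Vpreb1 had an r of 0.35 (exact permutation p = 0.467, adjusted p = 0.634) and a rho of 0.32 (exact permutation p = 0.450, adjusted p = 0.656). That r was 0.03 without the arrays farthest from the Igll1 median, control replicate 3 and LysM-KI replicate 4, and 0.94 (adjusted exact permutation p = 0.0273) when control 4 and LysM-KI 2 were dropped, so it rests on single arrays.

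Mzb1 had a negative r with each of the other members except Jchain. Its r was -0.78 with Pou2af1 (exact permutation p = 0.0324, adjusted p = 0.135) and its rho -0.84 (exact permutation p = 0.0215, adjusted p = 0.113). With Igll1 r was -0.78 (exact permutation p = 0.0215, adjusted p = 0.135) and rho -0.60 (exact permutation p = 0.145, adjusted p = 0.381). With Cd79b r was -0.72 (exact permutation p = 0.0386, adjusted p = 0.135) and rho -0.77 (exact permutation p = 0.0495, adjusted p = 0.196). The r with Blnk and with Vpreb1 was -0.66 and -0.65, with adjusted p = 0.267 for both in the same exact permutation test (rho -0.68 and -0.76, adjusted p = 0.297 and 0.196). None of these 5 relations passed after adjustment over all 10 arrays. Without the 2 arrays farthest from the median of Mzb1 (control 3 and LysM-KI 2) they ran from -0.86 (Pou2af1) to -0.62 (Cd79b). When control 4 and LysM-KI 2 were dropped, 3 of them passed, Pou2af1 at an r of -0.95, Igll1 at -0.94 and Vpreb1 at -0.90 (exact permutation, adjusted p = 0.0243, 0.0365 and 0.0243). Control mice weigh more in all 5, since the SD of each gene was larger in them, 3.30 times for Vpreb1 and 2.73 times for Blnk. LysM-KI replicate 2 was lowest of its group for Mzb1, Vpreb1 and Blnk (-0.40, -0.76 and -0.87 from the group mean). LysM-KI replicate 4, highest for Mzb1 (0.65), was below the mean for Vpreb1 (-0.07) and Blnk (-0.40). Control replicate 4 was lowest of its group for Vpreb1 (-1.79) and Blnk (-1.61). Both of these arrays were high in Xist. No r is given here with both left out, and the part of that difference in the relations between genes was not tested. The r within each group was not computed. Jchain, which shares with Mzb1 the lower level in LysM-KI cells, had an r of 0.18 with it (exact permutation p = 0.624, adjusted p = 0.771, rho 0.16 with exact permutation p = 0.665, adjusted p = 0.821; r = -0.07 without control 3 and LysM-KI 2) and between -0.27 and -0.02 with the others.

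**Figure D2:**
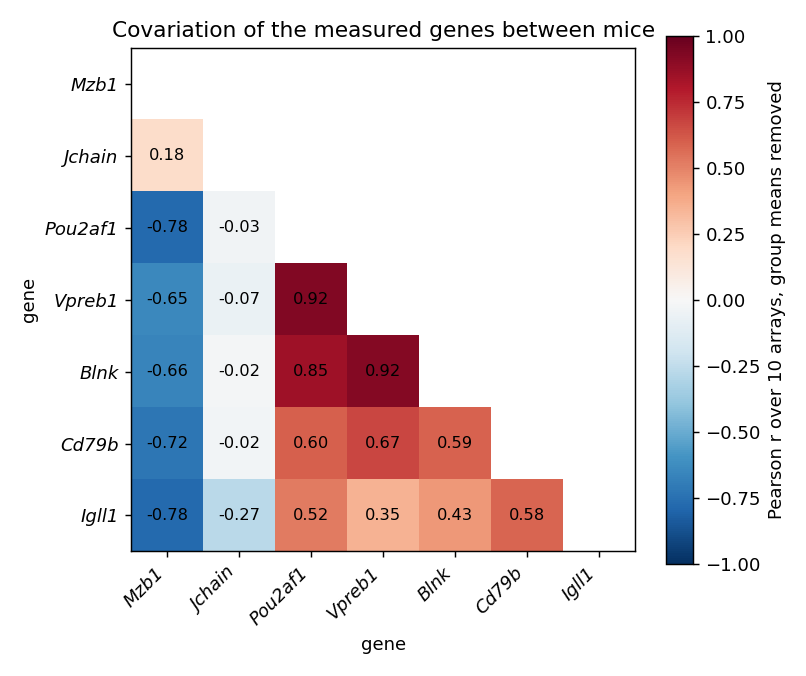
Pearson r between each 2 of the 7 measured genes over 10 arrays with the mean of each group removed; red is positive and blue negative. Pou2af1, Vpreb1 and Blnk form a block at 0.85 to 0.92, the column of Mzb1 is negative except for Jchain, and Jchain is near 0 with the rest.

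The sequences before the annotated starts of Vpreb1, Blnk and Pou2af1, which had the highest r with each other, and of Igll1, the neighbour of Vpreb1, are shown because these genes moved together or varied most between mice. RefSeq windows were at hand for 6 of the 9 genes, that of Mzb1 not among them, and each sequence is the 250 bases before the start on GRCm38.p6, read 5′ to 3′ on the strand of the gene. Capitals mark matches, on either strand, to the E-box CAGGTG bound by E2A, to CCCNNGGG, the core of EBF1 sites, and to the octamer ATGCAAAT.
Vpreb1 (chr16:16869256-16869505, minus strand): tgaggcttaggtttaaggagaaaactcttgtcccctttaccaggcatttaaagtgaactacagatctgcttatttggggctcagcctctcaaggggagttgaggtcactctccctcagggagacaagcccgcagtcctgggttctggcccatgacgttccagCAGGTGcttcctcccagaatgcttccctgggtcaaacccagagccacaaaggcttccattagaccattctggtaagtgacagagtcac
Igll1 (chr16:16863986-16864235, minus strand): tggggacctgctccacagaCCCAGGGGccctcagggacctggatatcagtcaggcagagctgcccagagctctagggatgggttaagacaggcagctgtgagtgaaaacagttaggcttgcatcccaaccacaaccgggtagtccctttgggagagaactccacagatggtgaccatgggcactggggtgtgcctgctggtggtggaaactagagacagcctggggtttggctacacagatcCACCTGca
Blnk (chr19:40994222-40994471, minus strand): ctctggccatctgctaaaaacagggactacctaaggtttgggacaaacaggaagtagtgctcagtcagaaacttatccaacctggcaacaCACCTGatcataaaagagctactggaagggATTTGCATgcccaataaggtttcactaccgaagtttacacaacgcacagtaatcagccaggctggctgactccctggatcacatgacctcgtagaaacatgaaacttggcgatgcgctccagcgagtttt
Pou2af1 (chr9:51213440-51213689, plus strand): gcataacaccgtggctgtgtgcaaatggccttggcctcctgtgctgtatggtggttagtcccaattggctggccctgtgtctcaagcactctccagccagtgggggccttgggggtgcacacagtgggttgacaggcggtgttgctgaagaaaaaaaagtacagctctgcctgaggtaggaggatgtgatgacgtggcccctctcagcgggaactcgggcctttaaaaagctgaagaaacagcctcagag
Of the 6 windows searched, 4 held the E-box, once in each, those of Vpreb1, Igll1, Blnk and Cd79a, as did 17.2% of all 32851 windows of this length. Blnk also held the octamer, present in 1.6% of windows, and Igll1 held the EBF1 core, present in 11.8%. The Pou2af1 and Jchain windows held 0 matches to these letters. A match is a run of letters, not a measured binding site.

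Genes around the members were then compared through lists for B lineage transcription factors, V(D)J recombination, B cell receptor signalling, B cell surface proteins and the secretory machinery. Of 92 listed genes, 1 further immunoglobulin gene included, 66 had a kept probe. Limma called 0 of these 66 at an adjusted p under 0.05 (smallest adjusted p = 0.892), and 0 of 17245 probes (0%) over the whole array. At an unadjusted p under 0.05 there were 2 of 66 (3.03%), Nck1 higher and Pdia4 lower, against 5.35% of all kept probes, 3.4% higher and 1.94% lower.

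Among the transcription factors, 8 of 14 measured genes were above 0 in LysM-KI minus control, with a median log2 difference of 0.17, against 0.05 over all 8896 genes. Lef1, of the TCF/LEF family, was at 1.14 (SE 0.61) on a probe detected on 1 control and 4 LysM-KI arrays, Mef2c at 0.84 (SE 0.47), with 3 of its 5 kept probes of that sign, and Irf8 at 0.59 (SE 0.36), each without passing the test. Ebf1 and Pax5 are named here, and Hsp90b1 further on, after their values were seen. Ebf1, a factor that commits cells to the B lineage, ran from 4.70 to 9.10 in control and from 7.13 to 9.55 in LysM-KI mice on the log2 scale. Pax5, which maintains B cell identity, was detected on 2 control arrays and 1 LysM-KI array.

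Of the recombination genes, 3 of 8 were above 0, with a median of -0.12. Vpreb2, a close paralog of Vpreb1, was at -0.84 (SE 0.46), the repair gene Xrcc4 at -0.57 (SE 0.57) and the interleukin-7 receptor gene Il7r at 0.31 (SE 0.32), none past the test. Vpreb2 was detected on only 3 control and 2 LysM-KI arrays, and Xrcc4 on 4 and 2. Whether the probe of Vpreb1 or of Vpreb2 also reads the other gene was not tested, which leaves some doubt as to which is measured. The Vpreb1 probe was detected on all 10 arrays and the Vpreb2 probe on 5. Between mice, 7 of the 8 recombination genes had a negative r with Mzb1, but for Xrcc5 and Xrcc6 it was -0.02 and for Prkdc -0.31, so that the larger values were those of Rag1, Il7r, Dntt and Vpreb2. With Vpreb1, 7 of 8 had a positive r. Of 14103 named probes, 50.5% had a negative r with Mzb1 and 46.7% with Vpreb1. The count was not particular to recombination genes, since 11 of the 14 transcription factors also had a negative r with Mzb1 (median -0.35), though 7 of 14 had one with Vpreb1. The summed LSK markers had an r of -0.44 with Mzb1 and 0.67 with Vpreb1, and the summed neutrophil markers 0.46 and -0.45, and their part in these relations was not tested. Mzb1 and the recombinase gene Rag1 had an r of -0.87 over 10 arrays (exact permutation p = 2.78e-04, adjusted p = 0.0367 over the 132 relations of Mzb1 and Vpreb1 with the 66 genes) and a rho of -0.93 (exact permutation p = 0.00201, adjusted p = 0.266). Of the members only Mzb1 and Vpreb1 were set against these lists, a choice made with the data seen, and the adjusted p depends on it. With control 3 and LysM-KI 2, the arrays farthest from the Mzb1 median, dropped, r was again -0.87. The relation of Mzb1 with Rag1 was the one relation of the 132 to pass, and it passed in 3 of 14 alternatives. It missed the threshold when any array other than LysM-KI replicate 5 was left out, with r between -0.92 and -0.84. Fewer arrays leave fewer orders to permute and raise the smallest p the test can give. A miss there is therefore no measure of a weaker relation.

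Rag1, Il7r and Dntt (terminal transferase) were picked out here after their values had been seen. Il7r and Dntt had an r of -0.82 (exact permutation p = 0.0161, adjusted p = 0.613) and -0.74 (exact permutation p = 0.0278, adjusted p = 0.613) with Mzb1. Their rho was -0.82 and -0.73 (exact permutation, adjusted p = 0.861 for both), and their r was -0.73 and -0.78 with control 3 and LysM-KI 2 dropped. Vpreb1 had an r of 0.85 with Rag1 (exact permutation p = 0.0230, adjusted p = 0.613, rho 0.85 with adjusted p = 0.861) and one of 0.76 without control replicates 4 and 3. Rag1 itself had a log2 level from 9.32 to 10.81 in control and from 9.30 to 9.72 in LysM-KI mice. Both Vpreb1 and Rag1 spread more widely in control mice, which therefore weigh more in their r. LysM-KI replicate 2 had the lowest Vpreb1 of its group (-0.76 from the mean) with Rag1 above its mean (0.11), while replicates 3 and 5 were above for both. The r of the 2 genes within each group was not computed.

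**Figure D3:**
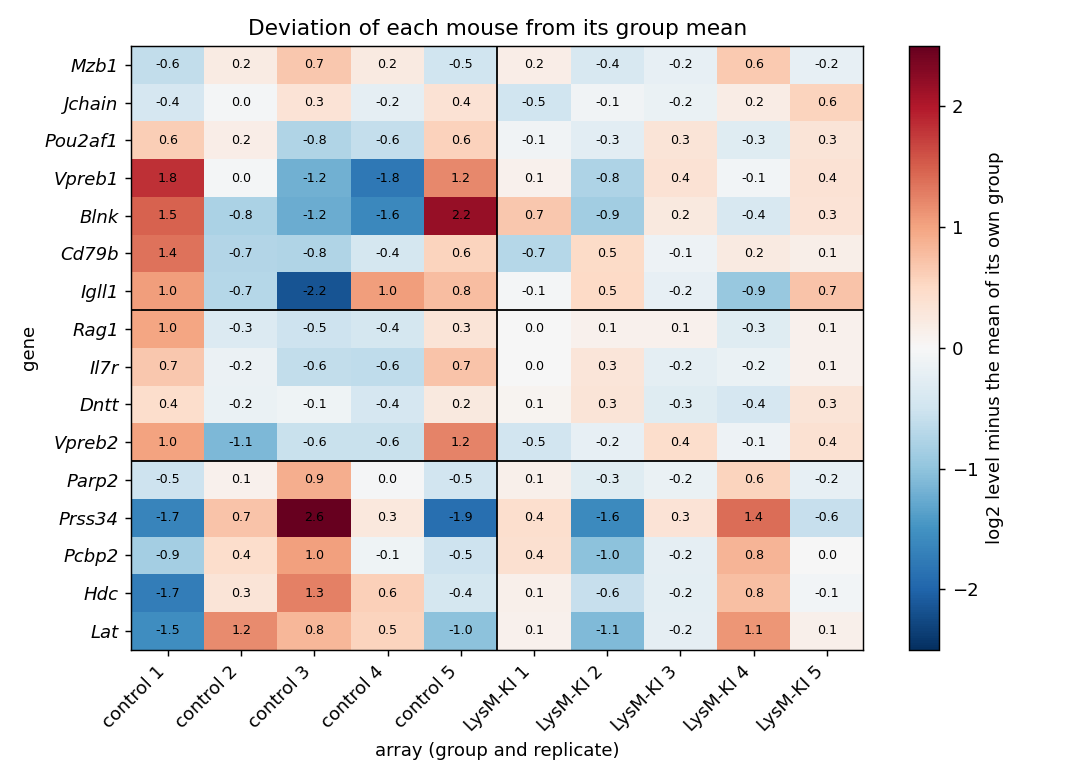
Log2 level of each mouse minus the mean of its own group, for the 7 measured members, 4 recombination and pre-B cell genes and the 5 genes most like Mzb1; columns are arrays, and red is above and blue below the group mean. Control replicates 1 and 5 are high for Vpreb1, Blnk, Rag1 and Il7r and low for Mzb1, and control replicate 3 is the reverse.

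B cell receptor signalling genes lay below 0 in 11 of 16 cases, with a median of -0.16. The adaptor Nck1 was at 1.01 (SE 0.45), the kinase Btk at -0.48 (SE 0.23) and the protein kinase C gene Prkcb at -0.97 (SE 0.65), with adjusted p = 0.931, 0.934 and 0.946 in limma. B cell surface genes were below 0 in 7 of 9 cases, with a median of -0.21, Cd72 at -0.54 (SE 0.44), Cd37 at -0.37 (SE 0.37) and Cd24a at -0.22 (SE 0.23). Genes of secretion and of folding in the endoplasmic reticulum, where Mzb1 acts, had a median of 0.00 with 10 of 19 above 0. The disulfide isomerase Pdia4 was at -0.71 (SE 0.30), Tram2 of the translocon at -0.88 (SE 0.47) and the cochaperone Dnajb9 at -0.60 (SE 0.38), with adjusted p = 0.892, 0.938 and 0.944 in limma. Hsp90b1 (GRP94), a chaperone with which the Mzb1 protein works, was at 0.04 (SE 0.20). Ighg1, the one other immunoglobulin gene with a probe, was detected on 1 control array.

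**Figure D4:**
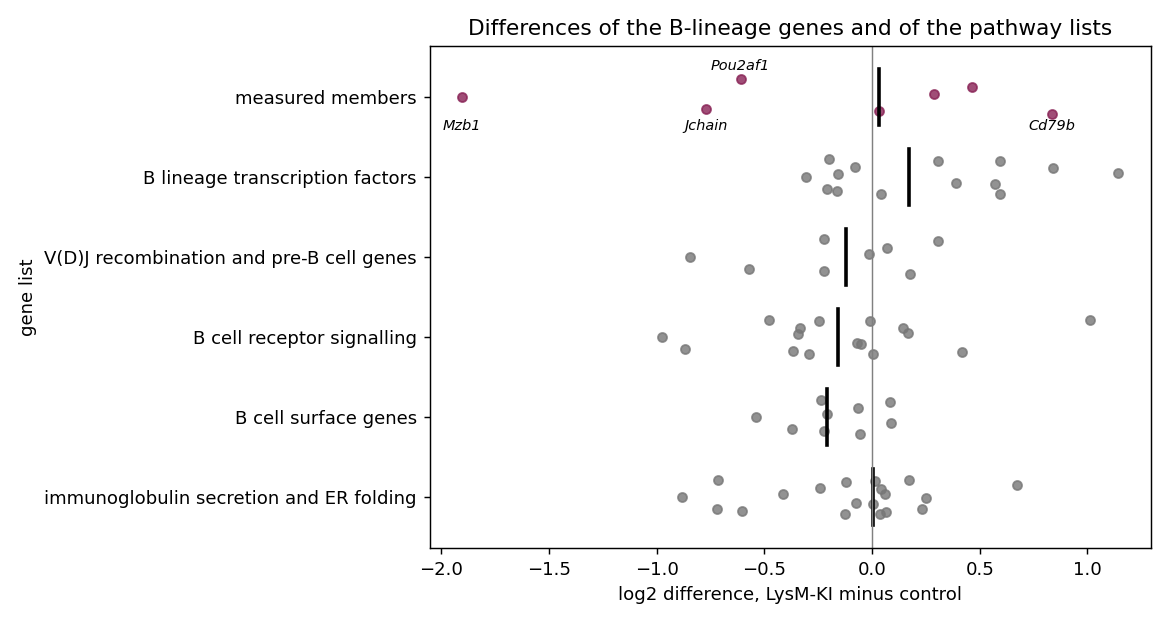
Log2 difference, LysM-KI minus control, of each measured member (top row) and of each measured gene of the 5 lists; points are genes and the black line is the median of the row. Mzb1 at -1.90 lies outside the range of the 5 lists, which runs from -0.97 to 1.14. Since Mzb1 was picked for this difference and the lists were not, nothing is read from its place.

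Markers of cells that carry Mzb1 or Jchain transcripts outside LSK cells were read beside these results. Of the 7 plasma cell markers, 3 were measured; Prdm1 and Tnfrsf17 were detected on 0 arrays, Sdc1 on 3 and Derl3 on 1. All 3 measured ones were below 0 in LysM-KI minus control, Slamf7 at -1.26 (SE 0.68), Irf4 at -0.31 (SE 0.35) and Xbp1 at -0.24 (SE 0.45), none past the test. Slamf7 and Irf4 were each detected on only 6 arrays. The summed log2 level of the 3 ran from 7.95 to 10.16 in control and from 7.92 to 9.40 in LysM-KI mice. Of 9 mature B cell markers, 5 were measured, with a summed log2 level from 9.81 to 10.60 and from 9.80 to 10.52; Cd22 and Fcmr were detected on 0 arrays, and Ms4a1 (CD20) on 3 control and 0 LysM-KI arrays. Of the 5 measured mature B cell markers, 4 were below 0 in LysM-KI minus control. Of 10 plasmacytoid dendritic cell markers, 7 were measured, with a summed log2 level from 12.37 to 13.12 in control and from 12.54 to 12.92 in LysM-KI mice. Of these 7, 5 were below 0 and 2 above, with a median of -0.14, where 3964 of all 8896 genes were below 0. At an unadjusted limma p under 0.05 were 2 of the 7 (28.6%), against 5.05% of all genes, Ccr9 lower and Cox6a2 higher. Siglech was detected on every array and had a log2 difference of -0.10 (SE 0.23), Ccr9 one of -1.05 (SE 0.35, limma adjusted p = 0.824) and Cox6a2 one of 1.38 (SE 0.62, limma adjusted p = 0.931). Erythroid markers were below 0 in 3 of 3 measured genes, with a median log2 difference of -0.74, the same direction as Mzb1 and Jchain. Neutrophil markers were mixed, with 3 of 5 below 0 and a median of -0.50. S100a9 was at -1.19 (SE 1.09), while Prtn3 at 0.50 (SE 0.43) and Ctsg at 0.62 (SE 0.52) went the other way. The 3 measured T and NK cell markers had a median of -0.01. None of these markers passed the test, the summed ranges of the 2 groups overlapped for all 6 cell types, and their part in the Mzb1 and Jchain differences was not tested.

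The genes most like Mzb1 between mice came from other functions. By Pearson r over 10 arrays, group means removed, across 14103 kept probes with 1 gene symbol, these were the poly(ADP-ribose) polymerase gene Parp2 (0.96), the basophil protease gene Prss34 (0.94), the RNA-binding protein gene Pcbp2 (0.93), the histidine decarboxylase gene Hdc (0.93) and Lat, an adaptor of T cell and mast cell receptors (0.91). For Parp2, Pcbp2 and Lat another kept probe had a negative r, down to -0.56 for Pcbp2, so their place rests on 1 probe. Prss34 and Hdc have 1 kept probe each. The ranking was not tested, and the highest of 14103 values over 10 arrays are high in part through the number ranked. Between LysM-KI and control cells Prss34 had a log2 difference of -1.34 (SE 0.84), in the direction of Mzb1, and Hdc one of 0.75 (SE 0.51), in the other direction, with limma adjusted p = 0.944 and 0.946. The most unlike were Golph3 (-0.93), Atpsckmt (-0.92) and Rbm41 (-0.90). Among the members, Igll1, Pou2af1 and Cd79b ranked 14039th, 14033rd and 13963rd of the 14103 probes in likeness to Mzb1, Jchain 4356th.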

How the data were processed

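Per the labels' protocols, RNA was isolated with Trizol and an RNeasy kit with DNase I, amplified by WT-Ovation pico and hybridised as biotinylated cDNA. Which scanner software was used is not given in the sources used here. Deposited by the authors were linear intensities, not normalized, and beside each a fraction that rises with the intensity (lowest rank correlation on its own array 0.990). A detection p was taken as 1 minus that deposited fraction. The authors' processed log2 values were within 0.0131 of log2 quantile-normalized intensities centred on each probe's median, and served as an alternative. Of the columns, 0 belonged to other samples.

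Normalization and tests used limma 3.58.1 under R 4.3.3 (normexp correction with negative controls inferred from the detection p, offset 16, quantile normalization, log2), an offset that shrinks the differences of dim probes. The filter kept a probe detected at p under 0.05 on 5 or more arrays. The 2 groups of individual mice were compared with limma (eBayes, two-sided), p-values adjusted by Benjamini-Hochberg over 17245 probes; standard errors and 95% intervals have 11.06 degrees of freedom. The kept probe with the highest mean stood for a gene, and levels of different probes were not compared. Symbols came from the platform annotation, updated through Entrez identifiers.

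All 9 members, the gene lists and the rule for naming genes (members, up to 3 genes of each list with the smallest p, listed markers, the 5 most and 3 least like Mzb1) were chosen with earlier results of these data known. The number of arrays limits precision. The labels do not say whether replicate numbers pair the mice. Deviations of arrays with the same number correlated at -0.0305 to 0.0605, which shows no pairing but cannot exclude one.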

Additional observations from a re-analysis of the deposited data

How the results depend on the processing

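Limma called 0 probes at an adjusted p under 0.05 under every scaling, filter and omission run. At an unadjusted p under 0.05 it was 922 in the main setting, 531 with detection required on all 10 arrays, 1848 with no detection filter and 743 to 1224 with each array left out. The Mzb1 difference kept its direction under all 18 alternatives, but shrank from -1.90 to -0.96 without background correction, -0.95 on the authors' processed values and -1.40 with an offset of 50. It ran from -2.06 to -1.73 with each array left out. Jchain, Pou2af1, Cd79b and Vpreb1 also kept their direction under 18 of 18, Blnk under 13 and Igll1 under 10. With a replicate block, Mzb1 stayed at -1.90 (SE 0.33) and 0 probes were called; each array correlated best with its own number in 2 of 10 cases. The number of member pairs past the adjusted Pearson threshold was 0 in the main setting and under cyclic loess, median scaling and no background correction, 6 with control 4 and LysM-KI 2 dropped, and from 0 to 2 with each array left out (2 without LysM-KI replicate 4, and 1 without control replicate 1, 3, 4 or 5). The relation of Mzb1 with Rag1, examined after the data had been seen, missed the threshold with median scaling (r = -0.52, exact permutation adjusted p = 0.763). It also missed it with control 4 and LysM-KI 2 dropped (r = -0.90, exact permutation adjusted p = 0.923). The permutation then had fewer orders and a larger smallest possible p, so that miss is no measure of a weaker relation. With each array left out r ran from -0.92 to -0.84. Of the 5 genes most like Mzb1, 3 stayed among the first 5 without background correction and 2 with control 4 and LysM-KI 2 dropped. At a detection p under 0.01 the members were detected in fewer cases, 65 of the 68 at 0.05. The cause of these changes was not tested.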
